A study of Mus musculus with 16 samples.

Results

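The 9 genes Hdac1 to Hdac9, which encode classical zinc-dependent histone deacetylases, were picked by gene symbol from the 32285 genes counted in 16 single-cell RNA libraries, and each was a single row in every library. All mice were female BALB/c. Tumor-bearing mice carried a transplanted chunk of 2208L, a Trp53-null mammary tumor line, and received vehicle or IACS-70654, an oral inhibitor of the bromodomains of the acetyltransferases CBP and P300, on a schedule of 3 days on and 2 days off, for 7 days as recorded, or for 6 days and 5 treatments by another description of the marrow mice. The marrow comparison had 3 groups: untreated WT mice, which bore no tumor, tumor-bearing mice given vehicle, and tumor-bearing mice given IACS-70654. Vehicle and WT mice thus differed both in the transplanted tumor and in dosing, which cannot be told apart. Each group had 2 libraries of CD45+ Ter119- marrow cells and 2 libraries of Lin- c-Kit+ hematopoietic stem and progenitor cells (HSPCs). Whole viable tumors gave 1 library each for vehicle, IACS-70654, anti-PD-1, and IACS-70654 with anti-PD-1. Tumor-bearing mice were transplanted at 7 to 8 weeks of age and killed 24 hours after the last treatment. Each library pooled cells of 3 mice. No WT mouse received the inhibitor, so its effect in marrow was measured in tumor-bearing mice only, and the tumor is a single transplanted line. Whether the 2 libraries of a group came from separate pools of mice was not given, so the spread between them may be technical. The p-values below come from a model that estimates this spread partly from other genes. A very small p-value therefore also reflects high counts, and may not measure the spread between mice.

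Histone deacetylases remove the acetyl groups that enzymes such as CBP and P300 place on lysines of histones and other proteins, and removal is usually linked to lower transcription. Hdac1, Hdac2, Hdac3 and Hdac8 form class I, mostly nuclear enzymes, of which Hdac1 and Hdac2 work in the Sin3, NuRD and CoREST complexes and Hdac3 works with the corepressor Ncor1. Hdac4, Hdac5, Hdac7 and Hdac9 form class IIa, which have little activity of their own, bind MEF2 transcription factors and leave the nucleus when kinases such as the calcium/calmodulin-dependent kinases phosphorylate them. Hdac6, in class IIb, is mostly cytoplasmic and deacetylates tubulin. The measurements asked whether the messages of these enzymes differed by cell type and after the acetyltransferases were inhibited. They are RNA levels, and neither deacetylase protein nor histone acetylation was measured in these libraries.

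The genes lie on 8 chromosomes (build GRCm38) and differ greatly in length, from Hdac6 at chrX:7930120-7947889 to Hdac9 at chr12:34047580-34917095, a span of 869.516 kb. Hdac4 (chr1:91928779-92195699) and Hdac8 (chrX:102284639-102505359) are also long, and all 3 lie on the minus strand. Other gene models overlap Hdac9, Hdac4 and Hdac5 on the same strand (3, 1 and 1 models), and the share of reads they took was not measured. The 250 bases before a RefSeq start (GRCm38.p6) are shown for the 3 genes whose changes are described in most detail, read on the gene's own strand. Hdac9 has 2 starts, at chr12:34917096-34917345 and chr12:34528890-34529139, Hdac8 has its window at chrX:102505159-102505408, and Hdac4 at chr1:92180342-92180591. Capitals mark matches, on either strand, to 7 motifs. These were part of a CRE site with the letters TGACG, the GC box with GGGCGG, the CCAAT box and the TATA box with TATAAA. The others were the E-box with CACGTG, a PU.1 core with GAGGAA and part of a MEF2 site with CTATTT.
Hdac9 start 1: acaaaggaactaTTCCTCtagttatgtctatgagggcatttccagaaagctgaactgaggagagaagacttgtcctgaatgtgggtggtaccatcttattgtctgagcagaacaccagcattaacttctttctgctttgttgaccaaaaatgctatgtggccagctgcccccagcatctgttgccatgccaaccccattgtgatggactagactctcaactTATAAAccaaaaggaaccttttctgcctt
Hdac9 start 2: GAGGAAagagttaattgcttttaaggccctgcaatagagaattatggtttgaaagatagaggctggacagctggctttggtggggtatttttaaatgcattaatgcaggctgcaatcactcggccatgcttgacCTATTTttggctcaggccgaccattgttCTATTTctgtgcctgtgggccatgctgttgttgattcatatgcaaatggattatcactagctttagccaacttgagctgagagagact
Hdac8: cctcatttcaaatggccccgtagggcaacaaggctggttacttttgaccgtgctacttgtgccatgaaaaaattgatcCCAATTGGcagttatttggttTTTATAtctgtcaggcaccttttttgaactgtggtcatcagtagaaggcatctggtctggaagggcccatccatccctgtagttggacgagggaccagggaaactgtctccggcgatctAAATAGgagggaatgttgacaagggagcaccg
Hdac4: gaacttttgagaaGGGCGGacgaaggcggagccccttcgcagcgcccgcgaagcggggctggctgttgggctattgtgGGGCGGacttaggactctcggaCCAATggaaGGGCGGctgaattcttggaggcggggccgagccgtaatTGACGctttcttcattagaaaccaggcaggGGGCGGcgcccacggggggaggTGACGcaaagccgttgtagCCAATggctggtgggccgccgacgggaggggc
The windows of Hdac9 were poor in G and C, with 44.4% and 43.6% and with 0 and 2 CG pairs, against a median of 52.4% and 6 CG pairs over 32851 mouse windows of the same length. The first held 1 TATAAA and 1 GAGGAA, and the second held 2 CTATTT and 1 GAGGAA. The Hdac8 window (48.4% G and C, 6 CG pairs) held 1 TATAAA, 1 CTATTT and 2 CCAAT matches, which overlap because CCAATTGG reads alike on both strands. The Hdac4 window (65.2% G and C, 23 CG pairs) held 4 GGGCGG, 2 TGACG and 2 CCAAT matches. Of all windows, 12.4% held TATAAA, 11% CTATTT, 23.3% GAGGAA, 33.8% CCAAT, 32.7% GGGCGG, 17.8% TGACG and 6.02% CACGTG. These matches describe the letters of the windows, and binding was not measured.

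After filtering, 73176 cells remained: 4394 to 6154 for each CD45+ library, 2836 to 7517 for each HSPC library and 1974 to 5064 for each tumor library. Before filtering, a library held 15590289 to 68415534 unique molecular identifiers (UMIs, each standing for 1 captured RNA molecule). No cell barcode was shared within a sort. Cells were clustered without the deacetylase genes and named from marker lists, and 0.269% of CD45+, 11.4% of HSPC and 12.2% of tumor cells stayed unnamed. Levels are UMIs of a gene per 1000000 UMIs (CPM), from the pooled counts of all cells of 1 class and 1 library. They were compared within a gene only, because long genes can gain reads from introns and the intron setting of the counting was not given in the sources used here. CPM use library totals, while the log2 changes carry edgeR's TMM scaling, so a change can differ from the ratio of the CPM values beside it. Replicate values are given in the order of the labels, replicate 1 then 2.

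In CD45+ marrow cells, Hdac9 rose in neutrophil precursors and fell in B cells with IACS-70654, Hdac8 rose in immature and mature neutrophils and fell in B cells, Hdac4 fell in immature and mature neutrophils, Hdac2 rose in mature neutrophils, Hdac5 fell in B cells and Hdac7 fell in neutrophil precursors. In HSPCs, Hdac9 rose in neutrophil, monocyte and multipotent progenitors and in basophils or mast cells, and Hdac5 fell in monocyte progenitors. A change was called where edgeR's quasi-likelihood test gave a Benjamini-Hochberg adjusted p under 0.01 over all genes and the log2 change was over 0.5 in size. In CD45+ cells, 10 of 67 tests of a member in a class were called between IACS-70654 and vehicle (4 higher, 6 lower, 6 genes), where 11.2% of tests over all genes were called. In HSPCs, 5 of 81 were called (4 higher, 1 lower, 2 genes), where 5.05% of all were. The members' shares, 14.9% and 6.17%, are therefore near those of all genes. Another 14 and 18 pairs of member and class had too few counts to be tested. Some of the calls named above were lost under other processing or when 1 library was left out. Those lost were both Hdac4 falls, the Hdac8 rise in immature neutrophils and the Hdac2 rise. Also lost were both Hdac5 falls, the Hdac7 fall and the Hdac9 rise in basophils or mast cells. Between vehicle and WT, 1 of 67 tests in CD45+ cells (2.98% of all tests called) and 1 of 78 in HSPCs (0.798% of all) were called. Both comparisons use the same vehicle libraries, so their values are given side by side and were not related to each other. In all 17 called results the CPM of the libraries of the 2 groups did not overlap. The call itself makes this likely, and the share over all genes was not counted, so it is no further support.

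**Figure D1:**
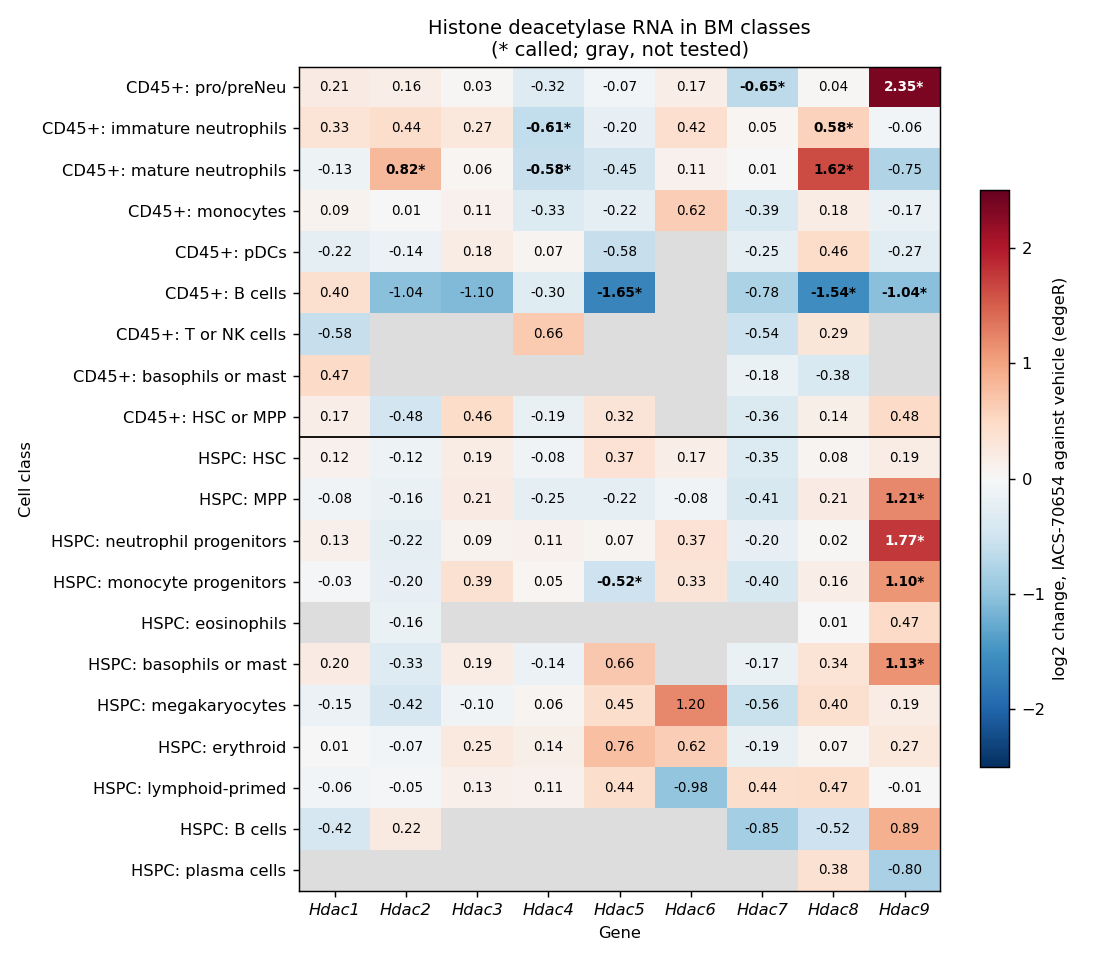
Log2 change of each member between IACS-70654 and vehicle in every tested CD45+ (upper rows) and HSPC (lower rows) class of bone marrow (BM), as a color scale with its value printed. Asterisks mark called changes and gray marks pairs not tested. Hdac9 has 4 of the 5 called HSPC changes, up to 1.77 in neutrophil progenitors, while the CD45+ calls are spread over 6 genes.

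Among class IIa enzymes, Hdac9 changed most often. In HSPC neutrophil progenitors it was 26.8 and 29.1 CPM in WT, 44.4 and 36.0 CPM in vehicle, and 151 and 143 CPM in IACS-70654. Both treated libraries lay far above the other 4, and the log2 change against vehicle was 1.77 (SE 0.057, 3.40-fold, adjusted p = 1.21e-61, edgeR, 6.27% of all genes called). Vehicle was also higher than WT, by 0.56 (SE 0.12, adjusted p = 4.05e-04, edgeR, 1.46% of all genes called), a call that was lost without WT replicate 1 (0.49) or vehicle replicate 1 (0.33) and with DESeq2 or finer clusters (lowest value 0.16). In multipotent progenitors (MPPs), Hdac9 was 82.2 and 75.5 CPM in WT, 99.9 and 94.6 CPM in vehicle, and 226 and 228 CPM in IACS-70654. The rise was 1.21 (SE 0.059, 2.31-fold, adjusted p = 7.24e-36, edgeR, 4.82% of all genes called). In monocyte progenitors it was 78.1 and 95.4 CPM in WT, 66.1 and 70.7 CPM in vehicle, and 152 and 142 CPM in IACS-70654, a rise of 1.10 (SE 0.056, 2.15-fold, adjusted p = 1.19e-37, edgeR, 6.27% of all genes called). There vehicle differed from WT by -0.37, under the size asked for.

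In basophils or mast cells of the HSPC sort, Hdac9 was 28.0 and 28.4 CPM in WT, 22.6 and 23.2 CPM in vehicle, and 66.7 and 32.7 CPM in IACS-70654. The 2 treated libraries stood far apart, and the rise of 1.13 (SE 0.22, adjusted p = 4.64e-06, edgeR, 9.53% of all genes called) was 0.41 and not called without IACS-70654 replicate 1. It was also not called with DESeq2 (1.07, adjusted p = 0.0360) or with finer clusters (0.31). The class also shifted in makeup: its summed marker level was 11776 to 12161 CPM in vehicle and 7666 to 8388 CPM in IACS-70654, and cluster 12, with Mcpt8 and Prss34 among its leading genes, drew only 8.88% of its cells from treated libraries. Within cluster 12 the rise in Hdac9 was 2.08 (SE 0.26). In erythroid progenitors, where Hdac9 was lowest, it was 7.63 and 7.85 CPM in WT, 8.67 and 8.58 CPM in vehicle, and 10.7 and 9.89 CPM in IACS-70654. The erythroid effect of 0.27 was not called, and it was smaller than that of neutrophil progenitors by 1.48 on the log2 scale (difference -1.48, SE 0.18, adjusted p = 4.4e-13, edgeR), the only one of the 9 members called for this difference, where 3.38% of all genes were. In hematopoietic stem cells (HSCs), Hdac9 was 80.9 and 40.0 CPM in WT, 67.8 and 50.0 CPM in vehicle, and 85.3 and 49.9 CPM in IACS-70654, values that overlap. In megakaryocyte-lineage cells the 2 treated libraries were at 88.6 and 15.4 CPM, on either side of the vehicle libraries at 45.1 and 57.1 CPM.

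The rise was also seen inside single clusters. Of 19 HSPC clusters in which Hdac9 could be tested, 8 were called higher and 0 lower. Of the neutrophil progenitors these were cluster 2 (1.89), 16 (1.40) and 11 (1.24), where 5.27%, 2.32% and 3.86% of all genes were called. Of the monocyte progenitors they were cluster 1 (1.27) and 6 (0.74), with 5.42% and 3.23% of all genes called, and of the MPPs cluster 3 (1.16) and 5 (1.10), with 3.46% and 3.86%. The last was cluster 12 of the basophils or mast cells, with 1.23%. Cluster 3, which drew 67.3% of its cells from treated libraries, had Hdac9 as its leading gene. Hdac9 took no part in the clustering. Leading genes were ranked against all other cells with all groups pooled, so this rank is not separate from the treatment difference. In the neutrophil progenitors the summed level of the class's own markers was 31371 to 31606 CPM in vehicle and 31840 to 31886 CPM in IACS-70654. The mature-neutrophil list there was 1567 to 1869 CPM in vehicle and 6738 to 7876 CPM in IACS-70654, with S100a8 and S100a9 among the markers that were higher and G0s2 and Csf3r lower. In the monocyte progenitors the monocyte list was 2165 to 2229 CPM in vehicle and 1540 to 1589 CPM in IACS-70654. The part of these shifts in the Hdac9 result was not tested.

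**Figure D2:**
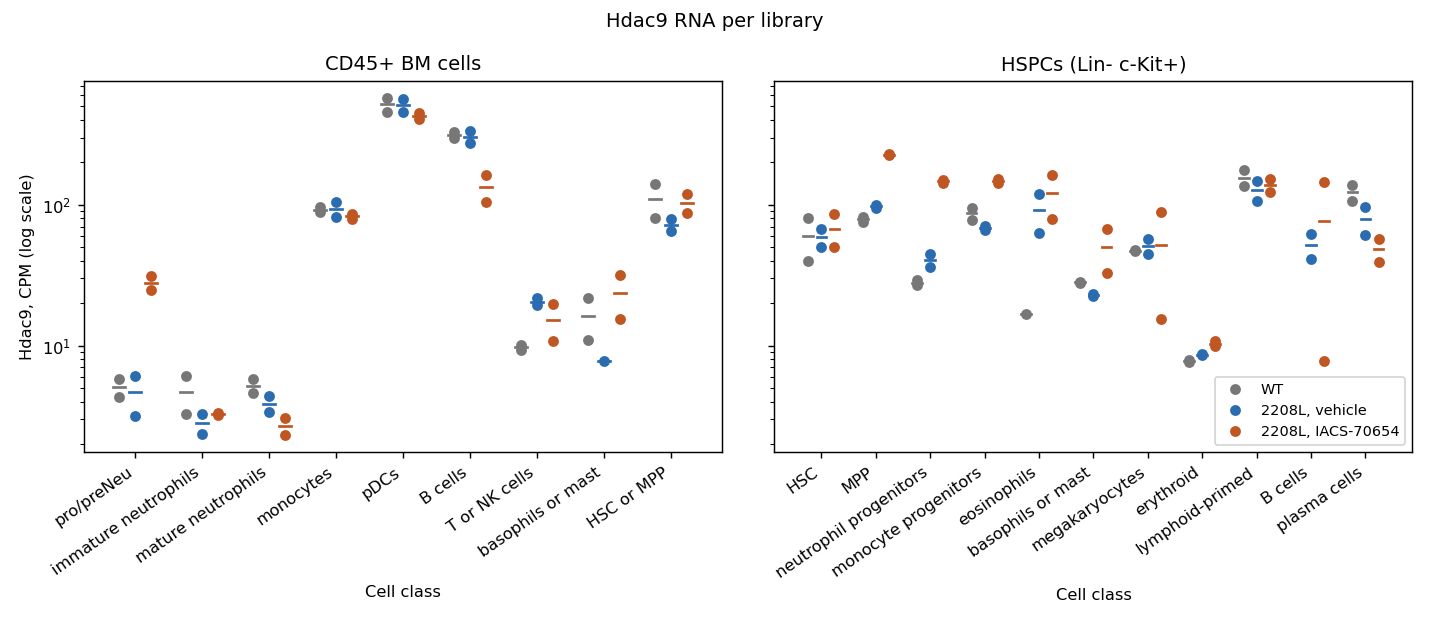
Hdac9 CPM (log scale) in each library by class, CD45+ bone marrow (BM) on the left and HSPCs on the right, with WT in gray, vehicle in blue and IACS-70654 in orange. Points are libraries and bars are means of the points shown. A CD45+ basophil library of vehicle at 0 has no point, so the vehicle bar there stands for the other library alone. The treated points stand above all others in neutrophil progenitors, MPPs and monocyte progenitors, and below them in CD45+ B cells.

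In CD45+ marrow, Hdac9 rose in the proliferating neutrophil precursors (pro/preNeu) from 6.13 and 3.19 CPM in vehicle to 24.6 and 31.0 CPM in IACS-70654, against 5.77 and 4.33 CPM in WT. These levels rest on 58 and 37 UMIs in vehicle and 290 and 470 UMIs in IACS-70654. The change was 2.35 (SE 0.18, 5.09-fold, adjusted p = 1.5e-10, edgeR, 23.8% of all genes called). Neither later stage was called: immature neutrophils had 2.36 and 3.29 CPM in vehicle and 3.35 and 3.21 CPM in IACS-70654, and mature neutrophils had 3.38 and 4.36 CPM in vehicle and 2.31 and 3.06 CPM in IACS-70654. The effect in mature neutrophils minus that in pro/preNeu was -3.13 (SE 0.37, adjusted p = 2.17e-10, edgeR), one of 2 members called for this difference, where 12.5% of all genes were. Within the pro/preNeu class, Hdac9 was called in cluster 13 (1.55, 3.29% of all genes called) and cluster 14 (2.20, 11%), whose leading genes include Elane and Mpo, but not in cluster 6 (0.87), led by histone and mitosis genes. Vehicle replicate 1 was at 30.2 CPM in cluster 13, close to the lower treated library at 44.8 CPM, while vehicle replicate 2 was at 11.6 CPM and the WT libraries at 8.96 and 8.14 CPM. Clusters 13 and 14 drew 58.5% and 56.3% of their cells from treated libraries and cluster 6 drew 29.7%. The class's own list was 10958 to 12055 CPM in vehicle and 26360 to 26427 CPM in IACS-70654 (5 of 10 markers higher, 3 lower), and the immature-neutrophil list was 85497 to 90222 CPM in vehicle and 38372 to 38839 CPM in IACS-70654. The part of this shift in the class-wide value was not tested.

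B cells, which had the highest Hdac9 level in CD45+ marrow after plasmacytoid dendritic cells, were at 297 and 329 CPM in WT, 334 and 275 CPM in vehicle, and 105 and 163 CPM in IACS-70654, a fall of 1.04 on the log2 scale (change -1.04, SE 0.17, adjusted p = 1.4e-04, edgeR, 9.85% of all genes called). The fall differed from the rise in pro/preNeu by -3.46 (SE 0.23), a comparison added after the values were seen, in which 10.7% of all genes were called. B cells were few, with 48 and 103 cells in IACS-70654, 156 and 177 in vehicle, and 702 and 720 in WT, and the groups drew them from different clusters. Cluster 17, led by Ms4a1 and light-chain genes, held 46 and 44 vehicle cells at 1046 and 1118 CPM, but 7 treated cells in all. Most treated B cells were in cluster 18, led by class II antigen-presentation genes, where Hdac9 was 145 and 170 CPM in IACS-70654 and 231 and 256 CPM in WT, with 17 vehicle cells in all. The part of this makeup in the fall was not tested, and no B cell cluster held enough cells of both groups for a test. In the mature-neutrophil list, B cells read 44881 to 50116 CPM in vehicle and 52937 to 85956 CPM in IACS-70654.

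Over the classes of vehicle mice, Hdac9 in CD45+ cells was highest in plasmacytoid dendritic cells (566 and 455 CPM), then B cells, monocytes (82.2 and 104 CPM), stem and multipotent cells (mean 72.1 CPM) and T or NK cells (mean 20.5 CPM). Each of these stood apart from the next in order. Pro/preNeu, mature neutrophils, basophils and immature neutrophils, at means of 4.66 to 2.82 CPM, overlapped with their neighbors. In HSPCs the order ran from dendritic cells (789 CPM in the single library with enough cells) and lymphoid-primed progenitors (149 and 106 CPM) through MPPs to erythroid cells. Neither plasmacytoid dendritic cells (451 and 406 CPM in IACS-70654) nor lymphoid-primed progenitors (153 and 123 CPM) were called. Monocytes as a class were not called either (86.1 and 79.0 CPM in IACS-70654, change -0.17). Within monocyte cluster 9, however, Hdac9 fell by 1.02 (change -1.02, SE 0.16, 5.06% of all genes called), from 83.1 and 122 CPM in vehicle to 57.0 and 45.4 CPM in IACS-70654, while in cluster 11 the change was 0.22 and not called.

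Hdac4, another class IIa member, rose in level from stage to stage of the neutrophils. In vehicle mice pro/preNeu had 48.4 and 52.9 CPM, immature neutrophils had 105 and 111 CPM, and mature neutrophils, the highest class in CD45+ marrow, had 205 and 194 CPM. With IACS-70654 it was 45.6 and 52.9, 82.4 and 86.3, and 156 and 157 CPM at the same stages, against 56.5 and 53.4, 136 and 130, and 226 and 198 CPM in WT. The fall was called in immature neutrophils (-0.61, SE 0.046, adjusted p = 2.53e-36, edgeR, 18.5% of all genes called) and mature neutrophils (-0.58, SE 0.049, adjusted p = 8.09e-15, edgeR, 19.2%), and the pro/preNeu value of -0.32 was under the size asked for. The rising order over the stages was kept in all 3 groups. In these 3 stages the scaling matters. Relative to edgeR's TMM scaling, library totals moved the median change of all genes by 0.26 in immature neutrophils, 0.23 in mature neutrophils and 0.29 in pro/preNeu. In HSPC basophils or mast cells the shift was 0.12, and Hdac9 there rose by 1.26 by library totals. By library totals alone the falls of Hdac4 were -0.36 and -0.35 and were not called. The 10 CD45+ calls then numbered 7 higher and 3 lower in place of 4 and 6, with Hdac1 (0.59), Hdac2 (0.69) and Hdac3 (0.53) called in immature neutrophils. The direction for Hdac4 was lower under both scalings. The groups drew unequally on the clusters of the immature and mature classes, and those of the mature class are given with Hdac8. What part this makeup had in the falls of Hdac4 was not tested. Of 18 CD45+ clusters tested for Hdac4, 2 were called. These were cluster 0 of the immature class (-0.58, SE 0.15, 4.38% of all genes called), which drew 5.11% of its cells from treated libraries, and cluster 7 of the mature class (-0.51, SE 0.12).

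**Figure D3:**
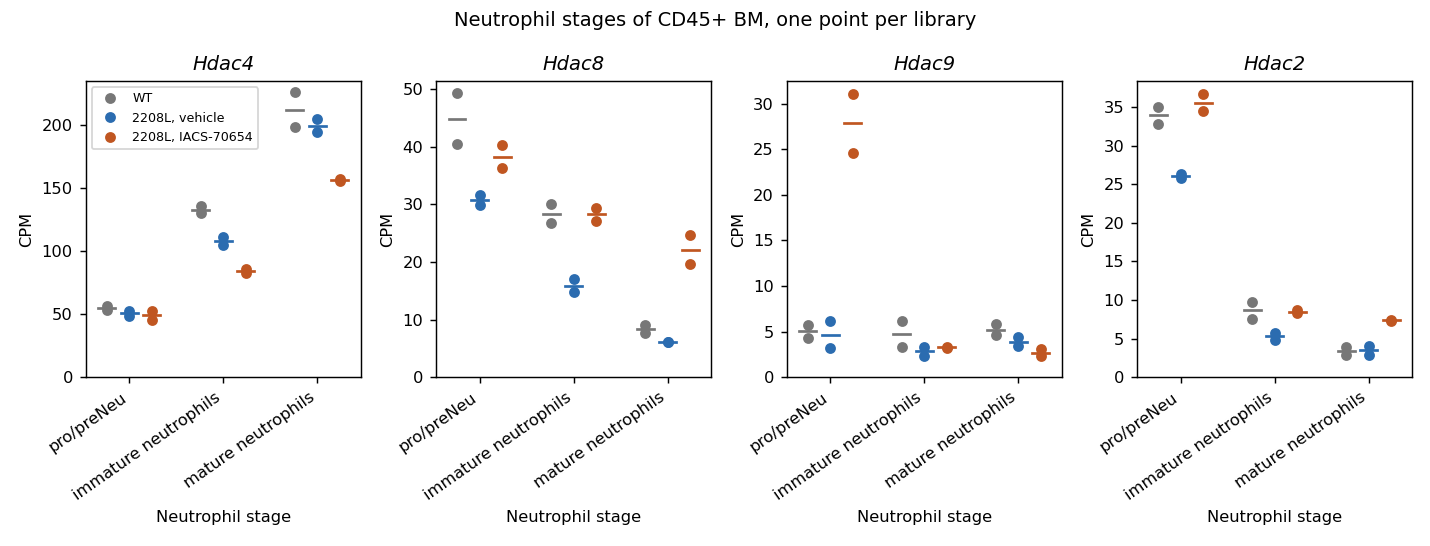
CPM of Hdac4, Hdac8, Hdac9 and Hdac2 in pro/preNeu, immature and mature neutrophils of CD45+ marrow, with 1 point a library and WT, vehicle and IACS-70654 in separate colors and bars for the means. Hdac4 climbs from stage to stage in every group and the treated points are lowest in the last stage, while the treated points are highest for Hdac9 in pro/preNeu and for Hdac8 in mature neutrophils.

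Hdac5 and Hdac7 fell in 1 class of CD45+ marrow each. Hdac5 in B cells was 41.7 and 34.5 CPM in WT, 59.5 and 48.5 CPM in vehicle, and 6.56 and 22.0 CPM in IACS-70654, which rest on 2 and 12 UMIs. The fall (-1.65, SE 0.40, adjusted p = 0.00511, edgeR) was not called without IACS-70654 replicate 1 (-1.24) or vehicle replicate 1 (-1.54), was -2.99 without IACS-70654 replicate 2, and was not called by DESeq2 or with only the groups compared in the fit (-1.65). Hdac5 in mature neutrophils was 38.4 and 38.4 CPM in vehicle and 32.9 and 32.6 CPM in IACS-70654, a difference of -0.45 that was under the size asked for. Within cluster 7, led by interferon-response genes, Hdac5 fell by 0.93 (change -0.93, SE 0.23), the only call among 16 CD45+ clusters tested for it. In HSPC monocyte progenitors Hdac5 fell from 14.0 and 13.3 CPM in vehicle to 10.1 and 9.42 CPM in IACS-70654, with WT at 10.8 and 11.3 CPM. That change (-0.52, SE 0.15, adjusted p = 0.00452, edgeR) lay at the edge of the size asked for, and 0 of 12 HSPC clusters tested for Hdac5 were called. It was lost without IACS-70654 replicate 1 (-0.58), IACS-70654 replicate 2 (-0.48) or vehicle replicate 1 (-0.46), with DESeq2, finer clusters and library totals. Hdac7, known for its role in lymphocyte development, fell in pro/preNeu from 15.4 and 17.5 CPM in vehicle to 11.3 and 14.2 CPM in IACS-70654, beside 14.6 and 14.1 CPM in WT (-0.65, SE 0.12, adjusted p = 1.14e-04, edgeR). By library totals it was -0.36 and not called, and Hdac7 was called in 0 of 17 CD45+ clusters tested. The shift in pro/preNeu makeup given for Hdac9 applies here too, and its part was not tested. Hdac7 was highest in basophils or mast cells and lymphocytes, at vehicle means of 83.1 CPM in CD45+ basophils, 70.5 CPM in B cells and 62.0 CPM in T or NK cells, which overlapped, and it was not called in any HSPC class (edgeR, 0 of 9, with 6 at an unadjusted p under 0.05, DESeq2 0).

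Among class I enzymes, Hdac8 changed most. In mature neutrophils it was 7.74 and 9.10 CPM in WT, 6.12 and 6.03 CPM in vehicle, and 24.6 and 19.7 CPM in IACS-70654. Both treated libraries exceeded all others, and the rise was 1.62 (SE 0.17, 3.08-fold, adjusted p = 2.1e-11, edgeR). In immature neutrophils Hdac8 was 26.7 and 29.99 CPM in WT, 17.0 and 14.7 CPM in vehicle, and 29.4 and 27.2 CPM in IACS-70654. Vehicle was lower than WT by 0.60 (change -0.60, SE 0.11, adjusted p = 4.6e-07, edgeR, 7.88% of all genes called), and IACS-70654 was higher than vehicle by 0.58 (SE 0.090, adjusted p = 1.34e-09, edgeR). Both treated libraries lay inside the WT range. Hdac8 was called in no immature cluster, and the groups drew unequally on the clusters of this class, as given for Hdac4. Both calls share the vehicle libraries, and without vehicle replicate 2 they were -0.47 and 0.46, under the size asked for. In pro/preNeu, at 31.7 and 29.9 CPM in vehicle and 36.3 and 40.3 CPM in IACS-70654, the change was 0.04. The effect in mature neutrophils exceeded that in pro/preNeu by 1.56 (SE 0.20, adjusted p = 1.52e-09, edgeR). The groups held different clusters of the mature class: clusters 1 and 10 drew 2.83% and 2.16% of their cells from treated libraries and cluster 5 drew 94.7%. Within the clusters shared by both groups, Hdac8 was called higher in cluster 4 (1.96, SE 0.52, 10.4% of all genes called) and cluster 7 (1.67, SE 0.36, 10.5%). These were the only 2 calls among 18 CD45+ clusters tested for Hdac8. The mature-neutrophil list was 256608 to 258164 CPM in vehicle and 226168 to 226291 CPM in IACS-70654, with G0s2, S100a9 and Csf3r among the markers that were lower.

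In B cells, where Hdac8 was highest, it was 395 and 401 CPM in WT, 466 and 432 CPM in vehicle, and 141 and 152 CPM in IACS-70654. The fall was 1.54 on the log2 scale (change -1.54, SE 0.14, 2.92-fold lower, adjusted p = 4.31e-08, edgeR). It differed from the effects in pro/preNeu (-1.63, SE 0.19) and mature neutrophils (-3.19, SE 0.24, where 9.80% of all genes were called). In cluster 18, which held most treated B cells, Hdac8 was 107 and 96.6 CPM in IACS-70654 and 126 and 139 CPM in WT, whereas in cluster 12, led by Cecr2, Bach2 and Ebf1, it was 497 and 530 CPM in WT and 572 and 507 CPM in vehicle. The 14 treated cells of cluster 12 gave 266 and 319 CPM. The makeup of the class and its Hdac8 level therefore moved together, and the part of each was not tested. Over the CD45+ classes of vehicle mice Hdac8 fell from B cells through T or NK cells (mean 121 CPM), stem and multipotent cells (108 CPM), basophils (94.7 CPM), plasmacytoid dendritic cells (79.8 CPM), monocytes (46.1 CPM) and pro/preNeu (30.8 CPM) to mature neutrophils (6.08 CPM). In HSPCs no Hdac8 test was called (edgeR, 0 of 11, with 5 at an unadjusted p under 0.05, DESeq2 0). In HSCs it was 143 and 164 CPM in vehicle and 163 and 161 CPM in IACS-70654. In other classes the libraries did stand apart without a call. Treated libraries were higher in, for example, lymphoid-primed progenitors (155 and 148 against 116 and 82.4 CPM) and megakaryocyte-lineage cells (184 and 181 against 140 and 114 CPM). They were lower in HSPC B cells (141 and 195 against 235 and 234 CPM).

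Hdac2, a catalytic subunit of the Sin3, NuRD and CoREST complexes, fell along the neutrophil stages of vehicle mice, where pro/preNeu had 26.3 and 25.8 CPM, the immature class had 5.74 and 4.87 CPM and the mature class had 2.90 and 4.11 CPM. In the mature class it was 7.44 and 7.31 CPM in IACS-70654 and 3.87 and 2.91 CPM in WT. The rise of 0.82 (SE 0.25, adjusted p = 0.00693, edgeR) was not called when any one of the 4 vehicle and treated libraries was left out (0.62 without vehicle replicate 1, 1.12 without vehicle replicate 2, 0.82 without IACS-70654 replicate 1 and 0.84 without IACS-70654 replicate 2) or by DESeq2. Within single clusters, Hdac2 was called in 0 of 13 CD45+ clusters tested. The unequal makeup of the mature class given for Hdac8 applies to this rise too, and its part was not tested. The differences of the Hdac2 effect in B cells from those in pro/preNeu (-1.23, SE 0.35) and mature neutrophils (-1.91, SE 0.44) were called, though its B cell change of -1.04 was not. Hdac1, its close relative, was at 20.8 and 19.0 CPM in vehicle and 29.4 and 30.2 CPM in IACS-70654 in immature neutrophils, a difference of 0.33, under the size asked for. Hdac1 had 0 calls of 9 CD45+ tests (2 at an unadjusted p under 0.05, edgeR; DESeq2 0) and 0 of 9 HSPC tests (0 at an unadjusted p under 0.05, edgeR, DESeq2 0). Hdac3, the enzyme of the Ncor1 complex, had 0 of 7 CD45+ calls (1 at an unadjusted p under 0.05, edgeR, DESeq2 0) and 0 of 8 HSPC calls (2 at an unadjusted p under 0.05, DESeq2 0), its HSPC monocyte-progenitor difference of 0.39 being under the size asked for. In HSPCs, Hdac2 had 0 of 10 calls and Hdac4 0 of 8 (4 and 1 at an unadjusted p under 0.05, edgeR, DESeq2 0 for both). Hdac6, the tubulin deacetylase, was scarce, at vehicle means from 0 to 15.2 CPM over the CD45+ classes, and had 0 of 4 CD45+ calls (0 at an unadjusted p under 0.05, edgeR, DESeq2 0) and 0 of 7 HSPC calls (2 at an unadjusted p under 0.05, DESeq2 0).

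Between vehicle and WT, the only calls were Hdac8 in immature neutrophils and Hdac9 in neutrophil progenitors. In CD45+ cells Hdac5 had the most other tests at an unadjusted p under 0.05, 3, and Hdac9 had 0 (edgeR, 0 calls for both). In pro/preNeu, Hdac8 was lower in vehicle than in WT by 0.40 (49.3 and 40.5 CPM in WT), under the size asked for. By library totals 3 CD45+ tests were called: Hdac2 (-0.71) and Hdac8 (-0.84) in immature neutrophils and Hdac8 (-0.55) in pro/preNeu, where library totals moved the median of all genes by -0.25 and -0.14 relative to TMM. Within single clusters Hdac9 was called in HSPC cluster 3 (0.55, SE 0.13, 0.467% of all genes called) and, in the other direction, cluster 6 (-0.51, SE 0.10, 0.724%).

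Genes that work with or against the deacetylases were read from 5 lists, and shares are of tests over genes and classes. Of the other deacetylases (Hdac10, Hdac11 and Sirt1 to Sirt7), 2 of 52 CD45+ tests were called between IACS-70654 and vehicle, both of Sirt5, a mitochondrial deacylase (1.34 in immature neutrophils and 1.16 in pro/preNeu), and 0 of 67 HSPC tests were (edgeR, 13 at an unadjusted p under 0.05). The CD45+ share was 3.85%, where 11.2% of all tests were called, and 5.05% of all HSPC tests were. Of 14 acetyltransferases, 2 of 117 CD45+ tests were called (Kat2a 1.06 in pro/preNeu and Ncoa1 0.75 in B cells) and 5 of 138 HSPC tests, all higher. These are 1.71% and 3.62% of tests, where 11.2% and 5.05% of all tests were called. Crebbp, which encodes CBP, was called once, in HSPC basophils or mast cells (0.55), where Kat6a was also called (0.63), and Ep300, which encodes P300, once, in HSPC megakaryocyte-lineage cells (0.88). Their median changes over the classes were 0.11 and -0.06 in CD45+ cells and 0.28 and 0.16 in HSPCs. Of 33 subunits of class I complexes, 14 of 273 CD45+ tests (11 higher, 3 lower) and 12 of 327 HSPC tests (all higher) were called, 5.13% and 3.67%, both below the shares of all tests. Trerf1, a partner of Hdac1 and Hdac2, rose by 2.57 in immature and 2.72 in mature neutrophils, 1.92 in B cells and 0.80 in pro/preNeu. Chd3, the NuRD helicase, rose in 4 HSPC classes (0.55 to 0.69).

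Of 24 partners and targets of class IIa enzymes, 18 of 171 CD45+ tests (12 higher, 6 lower) and 16 of 199 HSPC tests (13 higher, 3 lower) were called, 10.5% and 8.04%, where 11.2% and 5.05% of all tests were. Mef2c, a transcription factor that class IIa enzymes bind, rose in B cells (1.03), immature (0.86) and mature neutrophils (0.98) and monocytes (0.68). Camk2d, a kinase of the family that phosphorylates these enzymes, rose by 2.07, 1.84 and 1.75 in immature neutrophils, mature neutrophils and pro/preNeu and in 4 HSPC classes, by 1.51 in basophils or mast cells, 1.21 in neutrophil progenitors, 0.88 in monocyte progenitors and 0.60 in MPPs. Camk2d was also higher in vehicle than in WT in immature neutrophils (0.97), mature neutrophils (1.18) and monocytes (1.11), and 8 of 171 CD45+ tests of this list (5 higher, 3 lower) were called in that comparison, 4.68% where 2.98% of all tests were. In HSPCs 7 of 190 were called between vehicle and WT (4 higher, 3 lower), 3.68% where 0.798% of all tests were. The other 4 lists lay below the share of all tests in that comparison. In CD45+ cells 1 of 52 tests of other deacetylases (1.92%), 4 of 273 of class I subunits (1.47%), 0 of 117 of acetyltransferases and 0 of 78 of readers were called (edgeR, 2, 49, 16 and 17 at an unadjusted p under 0.05). In HSPCs 0 of 66, 304, 129 and 85 tests were called in the same order (edgeR, 11, 37, 9 and 12 at an unadjusted p under 0.05). Bcl6, a repressor that recruits class IIa enzymes, fell in mature neutrophils (-0.56) and pro/preNeu (-0.62) and rose in HSPC basophils or mast cells (2.14) and monocyte progenitors (0.82). Library totals moved the median of all genes by 0.23 in mature neutrophils and 0.29 in pro/preNeu relative to TMM. Falls of listed genes there were not recomputed by library totals. Klf6 rose in 4 HSPC classes (0.63 to 1.05). Of 9 acetyl-lysine readers, 1 of 78 CD45+ tests, 1.28%, was called (Brd3, -0.55 in pro/preNeu, with the same limit on scaling) and 0 of 94 HSPC tests (edgeR, 20 at an unadjusted p under 0.05). The median change of a list in a sort ran from -0.18 (readers, CD45+) to 0.098 (class IIa partners, HSPC), beside 0.0056 and 0.0032 for all tests of the 2 sorts.

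Levels over 28 named classes of vehicle mice were compared between each member and 6757 genes with a mean of at least 20 CPM, as a description, since classes of a library share its cells and depth. The genes most like Hdac9 were Mef2c (Pearson's r = 0.87 of log2(CPM + 1)), Snx30 (0.85) and Tcf4 (0.82), a transcription factor of plasmacytoid dendritic cells. Hdac8 was most like Cbfa2t2 (0.92), AW554918 (0.92) and Zfp644 (0.91). Hdac4 was most like Numb (0.87) and Atxn10 (0.84). Hdac2 was most like Serbp1 (0.97), Idh3a (0.97) and Rbbp7 (0.97), which encodes a histone-binding subunit of the same complexes. Hdac1 was most like Eftud2, Aqr and Sltm (0.93, 0.93 and 0.92), and the highest values of Hdac3, Hdac5, Hdac6 and Hdac7 were lower, at 0.87 (Psmb7), 0.80 (Ncoa3), 0.80 (Spag7) and 0.83 (Acyp1).

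In the 2208L tumors, Hdac9 was lower in macrophages of both treated tumors. It was 43.1 CPM (712 UMIs) with IACS-70654 and 104 CPM (501 UMIs) with vehicle, and 45.8 CPM (671 UMIs) with IACS-70654 and anti-PD-1 and 103 CPM (343 UMIs) with anti-PD-1 alone. The log2 ratios were -1.27 (95% interval -1.44 to -1.11) and -1.18 (-1.37 to -0.98). With 1 library a condition there is no replicate and no test, and these intervals, for the ratio of 2 Poisson counts, cover counting error only. Over all members and classes, 6 of 36 ratios between IACS-70654 and vehicle and 6 of 33 between the combination and anti-PD-1 were over 0.5 in size with an interval that leaves out 0, where 17.3% and 18.9% of ratios over all genes were. In macrophages 13.4% and 14.1% of all genes were, in monocytes 18.1% and 17.8%, in fibroblasts 22.3% and 25.5%, in T or NK cells 14.8% and 19.8%, and in tumor cells 19.3% for the first pair. The macrophage class held 2406 and 2248 cells in the treated tumors and 656 and 514 in the others. Within 6 macrophage clusters the Hdac9 ratio between IACS-70654 and vehicle ran from -1.50 (cluster 9) and -0.98 (cluster 0) to -0.30 (cluster 3), below 0 in each, and between the combination and anti-PD-1 from -1.93 to 0.86, above 0 only in cluster 4. For the first pair the ratio of the class was farther from 0 than that of 5 of the 6 clusters, and the part of cluster makeup was not tested.

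Hdac4 was higher in tumor monocytes with treatment, at 25.8 CPM against 7.79 CPM (34 and 5 UMIs, ratio 1.73, interval 0.37 to 3.44) and at 30.6 CPM against 13.3 CPM (44 and 10 UMIs, ratio 1.20). Tumor cells had more counts. Hdac5 there was 13.4 CPM with IACS-70654 and 21.7 CPM with vehicle (167 and 139 UMIs, ratio -0.70, interval -1.03 to -0.36), but 19.1 CPM and 20.1 CPM in the other pair (ratio -0.08). Hdac8 in tumor cells had ratios of -0.31 and -0.37 and Hdac1 of 0.29 and 0.48, all under the size asked for. The other ratios past it were each in 1 pair. For the first pair they were Hdac7 in macrophages (-0.83, against 0.32 in the other pair), Hdac8 in fibroblasts (1.79, 22 and 10 UMIs, with 11 and 9 UMIs in the other pair, under the 30 asked for) and Hdac8 in T or NK cells (-1.41, 27 and 32 UMIs, against -0.40). For the combination they were Hdac2 in macrophages (-0.57, against -0.21 in the first pair), Hdac9 in fibroblasts (-1.86, 9 and 30 UMIs, against -0.42), Hdac9 in monocytes (1.10, against 0.10) and Hdac4 in T or NK cells (-0.91, against -0.43). With TMM scaling the 6 ratios of the combination split into 3 higher and 3 lower in place of 2 and 4. In tumor neutrophils, Hdac8 had 9.91 CPM with IACS-70654 and 16.0 CPM with vehicle (4 and 10 UMIs, ratio -0.69, interval -2.81 to 1.11). In the other pair it had 21.2 and 17.1 CPM (9 and 14 UMIs, ratio 0.31, interval -1.08 to 1.62). Hdac4 there had 12.4 and 36.7 CPM for the first pair (5 and 23 UMIs, ratio -1.57, interval -3.32 to -0.14) and 44.7 and 45.1 CPM for the combination and anti-PD-1 (19 and 37 UMIs, ratio -0.01, interval -0.89 to 0.82). Of these only the last reached the 30 UMIs asked for, so the others are in none of the counts above. Hdac9 had 2 UMIs with IACS-70654 and 1 with vehicle, too few for a change to be detectable.

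**Figure D4:**
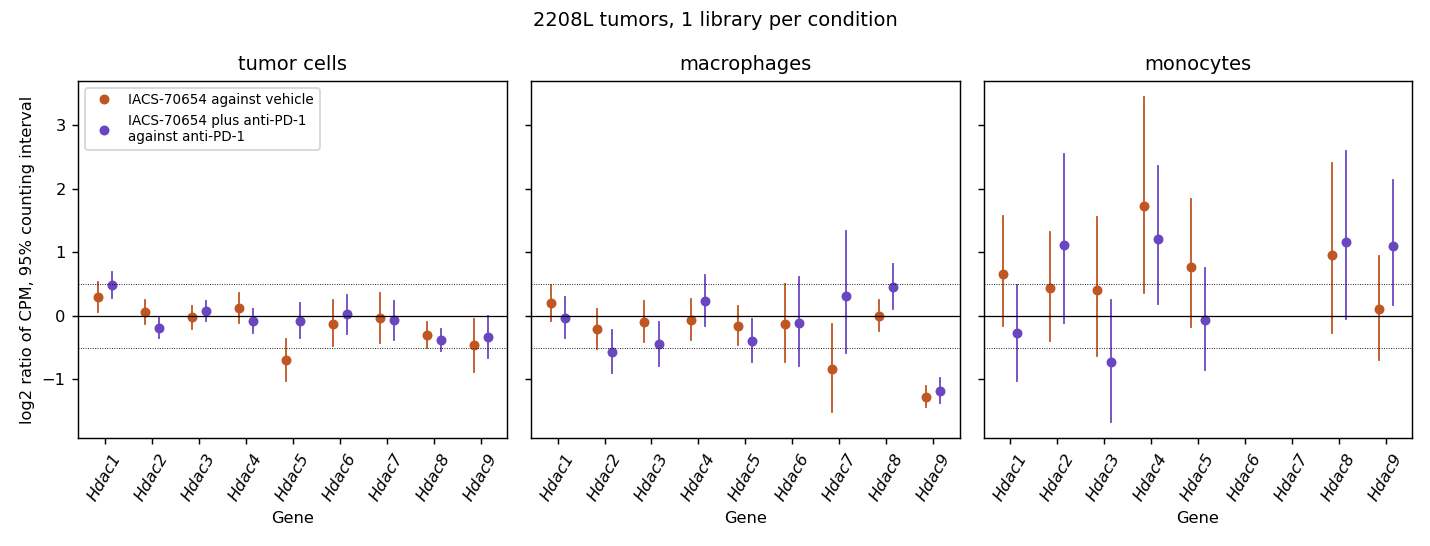
Log2 CPM ratios of the members in tumor cells, macrophages and monocytes for IACS-70654 against vehicle and for the combination against anti-PD-1, with 95% intervals for counting error as vertical lines and dotted lines at 0.5 in size. Both Hdac9 ratios in macrophages lie near -1.2 with intervals far from 0, and both Hdac4 ratios in monocytes lie above 0 with wide intervals.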

How the data were processed

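Tumor and marrow cells of mice were tagged with CellPlex oligos and sequenced with the droplet 3′ kit of 10x Genomics. The authors aligned and counted reads with CellRanger multi (7.1.0 for tumor and 7.2.0 for marrow per the file headers, build mm10 per the labels) and deposited filtered matrices of UMI counts per gene and cell, which are not normalized. Cells were kept if their genes numbered over 200 but under 6000 and mitochondrial UMIs made up 10% or less. Cells of each sort were clustered (scanpy 1.11.5, 2000 variable genes without the deacetylases and related lists, 30 principal components, 20 neighbours, Leiden resolution 1) and clusters were named from marker lists. Names were rebuilt here and may differ from the study's. Doublets were kept, and leaving out cells scored as doublets was an alternative.

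UMIs were summed per library and class of at least 20 cells and tested across all genes with edgeR 4.0.16 (filterByExpr, TMM, quasi-likelihood, R 4.3.3) over the 6 libraries of a sort, and p-values were adjusted by Benjamini-Hochberg. The study's thresholds were kept (0.01 for the adjusted p and 0.5 for the log2 change), but its single-cell test was not, since cells are not replicates. Differences between classes were tested with the library as a block. Tumor libraries, 1 a condition, were compared by CPM ratios with exact 95% intervals where both libraries together held at least 30 UMIs. The tests were checked on simulated data. Fits within single clusters and the B cell differences were chosen after seeing the data. The 9 members and all lists were chosen with earlier results of these data known. Of each related list at most 3 genes a comparison are named, those called in most classes, and Crebbp and Ep300 always. Some genes that these rules select are not reported here, so those named are examples. Alternatives were DESeq2 1.42.0, library totals, no count filter, finer clusters, no upper gene limit, doublet removal, 2 groups only, a replicate block and leaving out each library. Replicate libraries differed by more than counting noise (chi-square per degree of freedom 1.93 to 5.73), and each was counted as 1 sample. That spread does not show that they came from separate pools of mice.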

Additional observations from a re-analysis of the deposited data

Results flagged for a closer look

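The effect of IACS-70654 against vehicle differed between classes of the same libraries for 9 combinations of member and class pair, each by a test of the difference itself (edgeR, adjusted p under 0.01 and over 0.5 in size). All 9 members were tested in each class pair. The difference of mature neutrophils minus pro/preNeu was -3.13 for Hdac9 and 1.56 for Hdac8 (12.5% of all genes called). That of erythroid progenitors minus neutrophil progenitors was -1.48 for Hdac9 (3.38%). The difference of B cells minus pro/preNeu was -3.46 for Hdac9, -1.63 for Hdac8, -1.64 for Hdac5 and -1.23 for Hdac2 (10.7%). The difference of B cells minus mature neutrophils was -3.19 for Hdac8 and -1.91 for Hdac2 (9.8%). The B cell pairs were chosen after seeing the data, as classes where members were called in opposite directions. Differences for such members were thus likely from the choice itself. They rest on 48 and 103 treated B cells drawn from other clusters than those of vehicle, whose part was not tested. The Hdac5 value rests on 2 and 12 UMIs in the treated B cells.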

How the results depend on the processing

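Of 20 called marrow results (17 changes and 3 differences between classes), 10 passed the threshold in every alternative run, 10 missed it in at least one, and none changed direction. Those held in every alternative were Hdac9 in pro/preNeu (1.91 to 2.85), neutrophil progenitors (1.67 to 2.00), MPPs (0.84 to 1.24), monocyte progenitors (1.04 to 1.15) and B cells (-1.50 to -0.85), Hdac8 in mature neutrophils (1.48 to 1.85) and B cells (-1.64 to -1.47), and the 3 differences. Hdac4 in immature neutrophils and Hdac8 in immature neutrophils, in both contrasts, were not called with finer clusters, and the cause was not tested.

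The count of calls between IACS-70654 and vehicle was 8 to 10 in CD45+ cells, and 7 of 59 without B cells. In HSPCs it was 3 with DESeq2 in place of 5, and 3 to 6 over all alternatives. The single CD45+ call between vehicle and WT became 0 with finer clusters and 3 by library totals, and ranged from 0 to 2 when 1 library was left out. The single HSPC call became 0 with DESeq2 and with finer clusters, and ranged from 0 to 1 when 1 library was left out. By library totals the 5 HSPC calls between IACS-70654 and vehicle were all higher, with Hdac5 in monocyte progenitors lost (-0.49) and Hdac8 in lymphoid-primed progenitors called (0.53). The counts past the size in tumors were 5 to 7 and 6 to 8. A replicate block left the counts at 10 and 1 in CD45+ cells and 5 and 1 in HSPCs, and the called differences at 2 and 1. Samples that share a number did not deviate together (correlations -0.17 to 0.002), so the numbers were not taken as pairs, and crossing the numbers of the CD45+ WT libraries, chosen after seeing the data, gave 10 and 1 calls. With 2 libraries a group, few cells of some classes and single tumor libraries, small changes, above all of scarce members such as Hdac6, could be missed.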
